A study of Homo sapiens with 14 samples.

Results

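The data described here are transcript levels at multi-isoform loci of HEK293T cells that lack SETD2 and of HEK293T cells that have it. HEK293T is a human embryonic kidney line that carries the SV40 large T antigen. A locus was a stretch of the genome shared by transcripts with overlapping positions, as the deposited tables group them, and members were all loci with at least 20 transcripts, shorter than 100 kb, on chromosomes 1 to 22. The rule found 1069 such loci, and 1 was left out because its 26 transcripts carried a failed estimate. The remaining 1068 loci were 2.99% of the 35671 loci in the tables and held 31558 of 204092 transcripts. The groups were 3 SETD2 knockout (KO) RNA libraries and 3 wild-type HEK293T (WT) RNA libraries. The labels give column-purified RNA depleted of ribosomal RNA for the 3 KO libraries and 2 of the WT libraries, and a chromatin protocol for the remaining WT library. The labels say neither how the knockout was made nor whether it is 1 clone. The series has 14 samples, and its 8 chromatin immunoprecipitation samples were not analysed here.

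SETD2 is the enzyme that places trimethylation on lysine 36 of histone H3 in human cells. It travels with elongating RNA polymerase II, so the mark lies over the bodies of transcribed genes. The mark is read by proteins that also bind splicing factors, and loss of SETD2 is known to alter exon inclusion, intron retention and start sites inside genes in several cell types. Loci with many annotated isoforms are where such changes would appear as a change in each transcript's share of the locus. A locus of this kind can also hold several genes or short RNAs, and the tables do not say which transcripts belong to 1 gene, what type they are or how long they are. None of the transcript identifiers was matched to a gene name, so loci are given by hg19 position and transcripts by identifier.

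The deposited tables give 1 FPKM value (fragments scaled to transcript length and to the fragments of the library) for each transcript and group, not for each library. A transcript's share is its FPKM as a percent of the summed FPKM of its locus. A test table and a tracking table both hold the values. Over the 932 member loci with sums of at least 5 FPKM in both groups, their WT columns gave the same shares within 0.242% of the locus FPKM, whereas their KO columns differed by a median of 10.1%. Each KO to WT value below is therefore set beside the difference between both KO columns, as a description of how far the authors' own estimates of the KO shares moved. The tracking table also gives a lower and an upper bound per value, at a level that is not stated, and read depth is unknown. Where no table is named, levels and shares come from the test table, whereas bounds belong to the tracking-table value, so a KO level can lie outside them. RNA came from whole cultures, so a lower value in fewer cells and a lower value in every cell cannot be told apart.

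Most member loci were expressed in both groups, and most of their annotated transcripts were minor. Locus sums reached at least 5 FPKM in both groups at 932 loci with 27906 transcripts. Of the other 136 loci, 123 were lower than that in both groups, 7 in KO only and 6 in WT only. At the 932 loci the median locus sum was 101.3 FPKM in KO and 96.3 FPKM in WT. The leading transcript, the one with the highest FPKM of its locus, held a median of 29.5% of the locus in KO and 30.5% in WT. A median of 5 transcripts per locus held at least 5% in each group, out of a median of 18 transcripts above 0 in KO and 20 in WT. At 139 loci in KO and 139 in WT, 1 transcript held at least 50%.

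The spread of a locus over its isoforms was nearly equal in the groups. It was summarised by the effective number of transcripts, the number of equally abundant isoforms that would give the same concentration of shares. The median was 5.89 in KO and 5.78 in WT. The effective number was higher in KO at 481 loci and higher in WT at 451 loci, with a median difference of 0.029 (KO minus WT). With the tracking table the median difference was -0.075, of the opposite sign, so no direction can be given. Single loci departed from this in either direction, by between -10.6 and 9.47 effective transcripts.

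The make-up of a locus was compared between the groups as the percent of a locus's FPKM held by different transcripts in KO and WT, computed as 50% of the summed absolute share differences, so that 0 means equal shares and 100 means no transcript in common. Its median over the 932 loci was 21.1%, with quartiles of 14.6% and 28.4% and a range of 1.04% to 97.9%. With the tracking table the median was 18.1%, with quartiles of 13.1% and 25.2%. Between both KO columns it was 10.1%, with quartiles of 7.56% and 14.1%. At 892 loci (95.7%) the KO to WT value exceeded the value between the KO columns of the same locus, and with the tracking table this held at 841 loci. At least 25% of the locus lay on different transcripts at 319 loci (34.2%) in the test table, at 239 loci (25.6%) in the tracking table and at 23 loci (2.47%) between the KO columns. At least 50% did so at 37, 21 and 4 loci of these comparisons. Both KO columns describe the same KO group and are not independent. The spread between libraries is not in these columns, so exceeding the difference between the KO columns is no test. None of these counts carries a test.

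**Figure D1:**
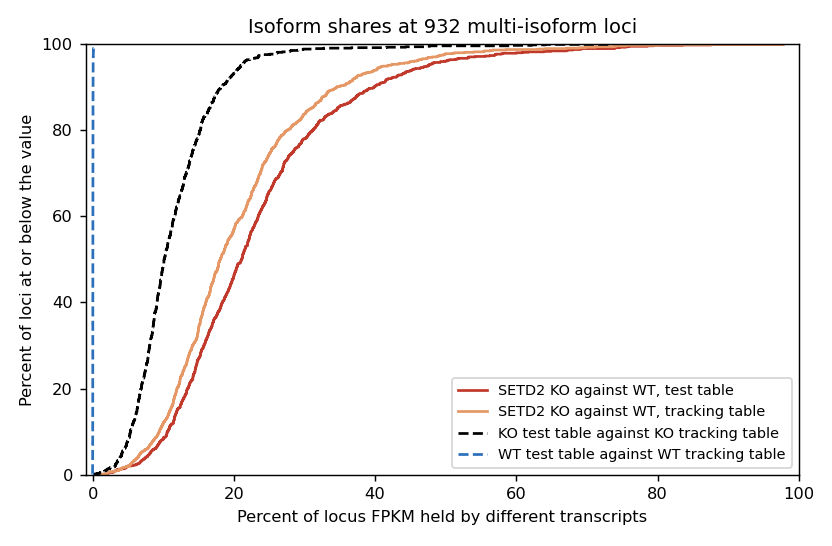
Cumulative percent of the 932 loci (y axis) at or below each share difference (x axis, percent of locus FPKM held by different transcripts), for KO against WT in each table and, dashed, for KO against KO and WT against WT between the tables. The KO to WT curves, with medians of 21.1% and 18.1%, lie right of the KO to KO curve, with a median of 10.1%, and the WT to WT curve stays near 0.

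The leading transcript was the same in KO and WT at 610 loci (65.5%). At 342 of these its share in KO was within 5 percentage points of its share in WT. It was at least 10 points higher in KO at 54 loci and at least 10 points lower at 56, so neither direction prevailed. At 101 loci the same transcript held at least 50% in both groups. Over all 932 loci, the KO leader's share was a median of 2.38 points higher in KO than in WT, and the WT leader's share was a median of 3.20 points lower in KO, directions that follow from how a leader is chosen.

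A different transcript led in KO and in WT at 322 loci (34.5%) in the test table and at 280 (30.04%) in the tracking table. Between both KO columns the leader differed at 164 loci (17.6%), and between both WT columns at 0. Many of these exchanges were between transcripts of near-equal level. The KO leader was ahead of the WT leader by a median of 8.27 points in KO, and the WT leader was ahead by a median of 7.71 points in WT. At 180 loci the lead was under 5 points in at least 1 group, and at 65 loci it was at least 10 points in both. The bounds in the tracking table were wide beside these leads. The lower bound was 0 for 45.1% of leading transcripts in KO and 41.3% in WT, and the median upper bound was 1.92 times the value in KO and 1.85 times in WT. Among the 322 loci the bounds in KO and WT did not overlap for the KO leader at 7 loci, for the WT leader at 16 and for both at 0. Over all 932 loci they did not overlap for 9 KO leaders and 18 WT leaders. Of all tested transcripts of the series, which were not chosen as leaders, 0.632% had bounds that did not overlap. The WT leader was listed at 0 in KO at 32 of the 932 loci, and the KO leader was listed at 0 in WT at 7. In the tracking table these numbers were 20 and 7.

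**Figure D2:**
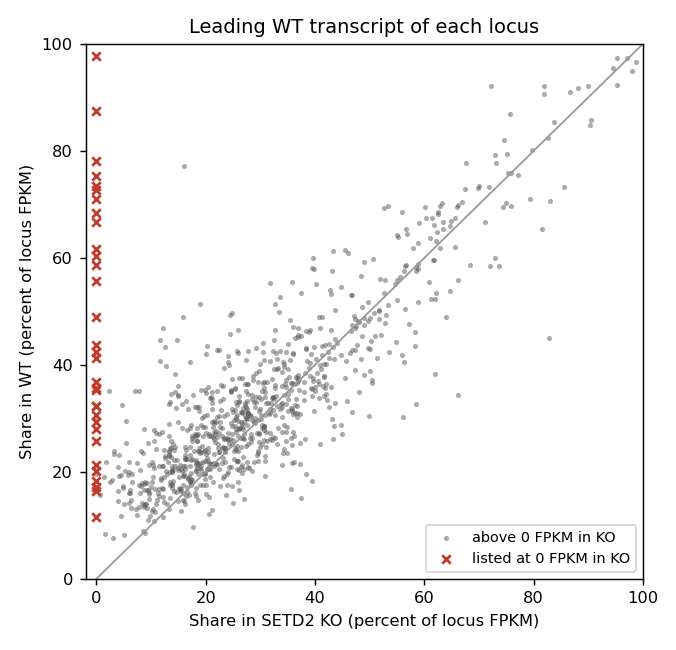
Share of the locus held by the transcript that led it in WT, in KO (x axis) and in WT (y axis), as percent of locus FPKM, 1 point for each of the 932 loci, with a line of equal shares. The 32 transcripts listed at 0 in KO are crosses at the left edge, and the other points lie on both sides of the line, with a median KO minus WT difference of -3.20 points.

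At the 10 top-ranked loci, the largest share difference belonged to a transcript listed at 0 in 1 group. Loci with at least 10 FPKM in both groups were ranked by the smaller of their test-table and tracking-table values. Some loci outside the 10, such as 1 on chromosome 16 at 87.6%, had higher test-table values than several of these. The 10 loci ranged from 67.1% to 97.9% in the test table. At 8 of them the transcript that led in WT was listed at 0 in KO, and at 2 the transcript that led in KO was listed at 0 in WT. An exact 0 in such tables can be a failed estimate, and the files do not say which zeros are. None of these leading transcripts was called, with p-values between 0.0855 and 0.164 and a q-value of 0.991 in the authors' deposited table.

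At 15:90373831-90456188, a locus of 27 transcripts, the sum was 38.99 FPKM in KO and 1684 FPKM in WT. ENST00000516836 was listed at 0 in KO and at 1647 FPKM in WT, where its bounds ran from 0 to 13382 FPKM. The other 26 transcripts together had 38.99 FPKM in KO and 37.5 FPKM in WT, so that nearly all of the difference in the sum lay in 1 transcript. Among those 26, ENST00000398333 led in both groups, with 12.3 FPKM in KO and 14.0 FPKM in WT, and the share difference was 23.6%.

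At 2:85569211-85618875, ENST00000610137 was listed at 0 in KO and at 153.0 FPKM in WT, 78.0% of the WT locus, with bounds of 122.7 to 176.6 FPKM. The remaining 37 transcripts held 37.4 FPKM in KO and 43.0 FPKM in WT, again led by the same transcript in both, ENST00000295802, but with a share difference of 37.9% (26.8% in the tracking table). At 1:161195793-161208092, ENST00000583479 was listed at 0 in KO and at 71.5 FPKM in WT, with bounds of 54.7 to 84.8 FPKM. The rest of that locus had 23.1 FPKM in KO and 23.5 FPKM in WT, with a share difference of 37.5%. In the rest the leader in both groups was ENST00000367987, with 6.30 FPKM in KO and 12.3 FPKM in WT. It was not called, with an unadjusted p-value of 0.00535 and a q-value of 0.722 in the authors' deposited table.

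Near-equal sums of the rest, but with different leaders within it, were found at 12:110928902-111021125 and 19:12810008-12834825. At the locus on chromosome 12, ENST00000365465 was listed at 0 in KO and at 216.9 FPKM in WT, and the rest had 77.9 FPKM in KO and 81.6 FPKM in WT, with a share difference of 17.1%. At the locus on chromosome 19, ENST00000386967 was listed at 0 in KO and at 316.6 FPKM in WT, and the rest had 171.4 FPKM in KO and 157.5 FPKM in WT, with a share difference of 17.3%. The WT bounds of ENST00000386967 ran from 0 to 5973 FPKM, and those of ENST00000365465 from 184.1 to 240.0 FPKM. At 16:71762913-71843104, ENST00000411292 was listed at 0 in KO and at 44.1 FPKM in WT. The rest of this last locus was higher in KO, at 30.7 FPKM against 20.4 FPKM in WT, and its share difference was 21.8%.

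At 1:32192718-32230494 the rest of the locus was also lower in KO. ENST00000581063 was listed at 0 in KO and at 116.8 FPKM in WT, and the other 21 transcripts had 24.2 FPKM in KO and 42.4 FPKM in WT, with a share difference of 31.9% (13.8% in the tracking table). The locus 7:91828283-91875480 had a pair of such transcripts. ENST00000363899 was listed at 0 in KO and at 20.4 FPKM in WT, and ENST00000408593 at 0 in KO and at 9.97 FPKM in WT. In KO this locus was led by ENST00000445516, at 7.00 FPKM in KO and 2.29 FPKM in WT, and without ENST00000363899 the share difference was still 47.2%.

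The 2 loci of the opposite kind had a leader listed at 0 in WT. At 15:75639296-75648087, ENST00000384904 had 99.2 FPKM in KO in the test table and 245.9 FPKM in KO in the tracking table, against 0 in WT. The rest of the locus had 38.1 FPKM in KO and 39.8 FPKM in WT, with a share difference of 22.3%. At 3:156864297-156878549, ENST00000364908 had 82.9 FPKM in KO against 0 in WT, and the rest had 44.9 FPKM in KO and 40.2 FPKM in WT, with a share difference of 35.7%. For both transcripts the lower bound in KO was 0.

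**Figure D3:**
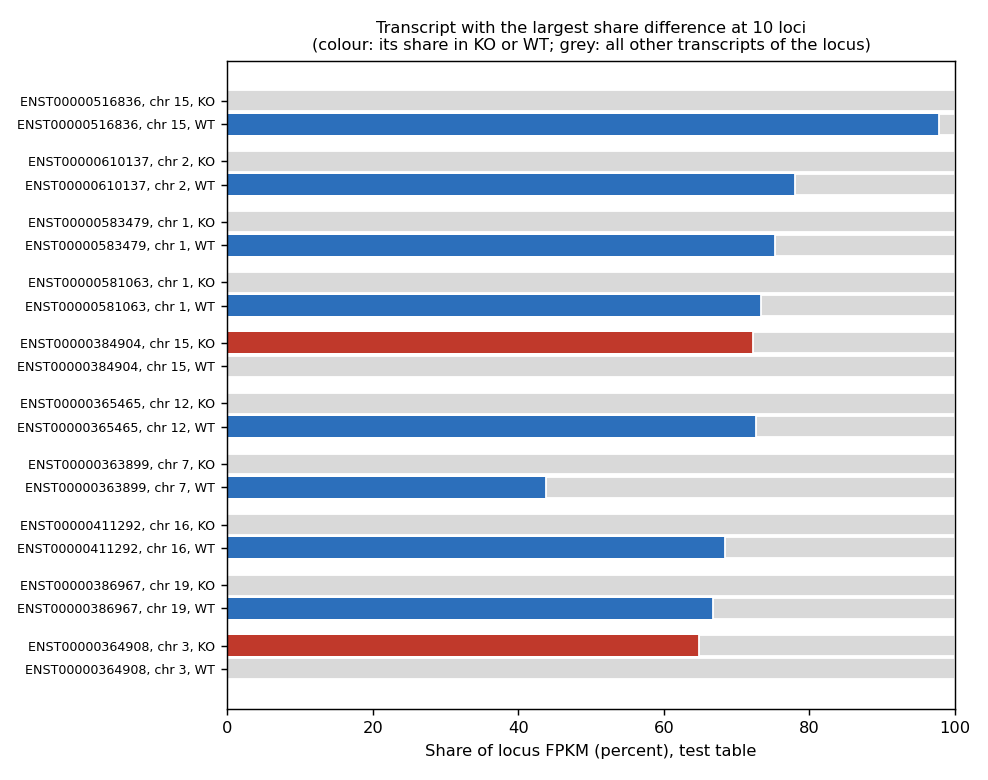
Share of locus FPKM (percent, test table) of the transcript with the largest share difference at each of the 10 loci, KO above WT. Colour is that transcript and grey is the rest of the locus. At 8 loci the transcript has no bar in KO, and at 2 loci, on chromosomes 15 and 3, it has none in WT.

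Transcripts listed at 0 were common at member loci. Of the 31558 transcripts, 13049 (41.3%) were at 0 in KO and 9642 (30.6%) in WT. With the tracking table, 11703 were at 0 in KO and 9617 in WT, so the number depended on the KO column. At the 932 loci, 4285 transcripts were at 0 in KO only, and 156 of them held at least 5% of the locus in WT. Another 1270 were at 0 in WT only, and 104 of them held at least 5% in KO. Among the 319 loci with at least 25% on different transcripts, the transcript with the largest share difference was listed at 0 in KO at 47, at 0 in WT at 15 and above 0 in both at 257. Among the 37 loci with at least 50%, it was listed at 0 in KO at 20, at 0 in WT at 4 and above 0 in both at 13. Zeros thus led the 10 top-ranked loci named above but not most of the 319 loci.

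Share differences were therefore also computed over the 17120 transcripts (54.2%) above 0 in all 4 columns. The loci named from this set were chosen after their values were seen. Over the 927 loci that kept at least 5 FPKM in both groups, the median was 18.6% in the test table and 9.40% between the KO columns. At least 25% lay on different transcripts at 218 loci in the test table, 143 in the tracking table and 7 between the KO columns, and at least 50% at 3, in the test table. By the smaller of both tables' values, 7:99746530-99756338 came first among loci with at least 10 FPKM in both groups. Its share difference was 57.9% in the test table and 43.5% in the tracking table. ENST00000584344 had 696.4 FPKM in KO (70.5% of these transcripts) and 50.4 FPKM in WT (12.8%). In the tracking table its values were 453.8 FPKM in KO and 49.1 FPKM in WT, which is not an independent measurement. Its bounds of 431.2 to 476.5 FPKM in KO and 41.8 to 56.4 FPKM in WT did not overlap. Its p-value in the authors' deposited table was 0.446. ENST00000341942, which led the locus in WT, had 170.0 FPKM in KO and 160.3 FPKM in WT, a share of 17.2% in KO and 40.6% in WT. By the tracking table it had 245.2 FPKM in KO and 156.6 FPKM in WT, and its share in KO was 30.3%.

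At 7:107220002-107269943, ENST00000490060 held 65.6% in KO and 16.5% in WT, at 21.6 FPKM in KO (14.1 FPKM in the tracking table) and 2.29 FPKM in WT. Its lower bounds were 0 in both groups. At 17:48609904-48633213, ENST00000393244 held 15.1% in KO and 38.6% in WT, at 2.52 FPKM in KO (1.64 FPKM in the tracking table) and 8.80 FPKM in WT. It had an unadjusted p-value of 0.0113 and a q-value of 0.991 in the authors' deposited table. ENST00000503063 led that locus in KO, with 4.54 FPKM in KO and 4.03 FPKM in WT. At 11:113185251-113254266, ENST00000529221 held 1.68% in KO and 24.04% in WT, at 0.325 FPKM in KO (1.45 FPKM and 6.82% in KO in the tracking table) and 5.41 FPKM in WT. At 14:24895738-24912111, ENST00000555561 held 25.6% in KO and 2.09% in WT, at 32.9 FPKM in KO (27.4 FPKM in the tracking table) and 2.78 FPKM in WT, whereas the sums of the 24 transcripts kept there were close, at 128.6 FPKM in KO and 133.2 FPKM in WT. The KO columns of this locus differed by 24.5%, against 43.2% between KO and WT.

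At other loci the shares of the locus as a whole were almost equal. The smallest differences, by the larger of both tables' values among loci with at least 10 FPKM in both groups, were at loci with 1 or 2 dominant transcripts. At 1:53361656-53392884, with 28 transcripts, ENST00000420575 held 97.1% in KO and 97.3% in WT, and 1.04% of the locus lay on different transcripts. At 12:6976283-7032861, with 50 transcripts, the difference was 2.32%. There ENST00000474253 held 49.0% in KO and 48.7% in WT, and ENST00000396705 held 42.9% in KO and 43.2% in WT.

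At 1:32083287-32169920, with 53 transcripts, ENST00000373703 held 94.6% in KO and 95.5% in WT. Near-equal shares could stand beside listed sums that differed. At 1:228744885-228788150, ENST00000390935 held 98.8% in KO and 96.6% in WT, while the locus sum was 45.6 FPKM in KO and 14.4 FPKM in WT. The bounds of ENST00000390935, 0 to 110.1 FPKM in KO and 0 to 55.9 FPKM in WT, overlapped. Without it the share difference was 16.5% (20.5% in the tracking table), over only 0.54 FPKM in KO and 0.49 FPKM in WT. Likewise, at 5:140018325-140042064, ENST00000581765 held 95.4% in KO and 92.3% in WT, with locus sums of 6047 FPKM in KO and 3768 FPKM in WT. The bounds of that transcript, 0 to 16348 FPKM in KO and 0 to 12985 FPKM in WT, covered the difference. Without ENST00000581765 the share difference at this locus was 15.9% (13.2% in the tracking table).

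The last locus was also among the 5 with the highest KO sums. The highest was 5:180663909-180699308, with 51 transcripts and 9640 FPKM in KO against 8181 FPKM in WT. Its 3 largest transcripts were close to each other, and its leader differed, ENST00000504726 in KO (25.3%, against 21.97% in WT) and ENST00000509535 in WT (24.04% in KO, 25.97% in WT). At 19:5674958-5720583, ENST00000582463 led in both groups, with 72.9% in KO and 59.9% in WT. At 16:30064411-30081778, ENST00000566130 led in both, with 27.6% in KO and 28.8% in WT. At 11:62619460-62623386, ENST00000384693 led with 60.3% in KO and 67.5% in WT, and ENST00000363981 had 413.2 FPKM in KO and was listed at 0 in WT. Share differences at these 4 loci were 9.08%, 13.5%, 8.42% and 24.9% in that order.

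Locus sums differed little between the groups. The median log2 ratio of KO to WT was 0.04 over the 932 loci and 0.06 over all 8901 loci of the series with at least 5 FPKM in both groups. In the tracking table these medians were 0.11 and 0.09. The sum was within 1.5-fold at 821 loci (88.1%). It was at least 2-fold higher in KO at 11 loci and at least 2-fold lower at 17, and the median share difference at these 28 loci was 59.8%. At the 559 loci with sums within 1.2-fold the median share difference was 19.6%, and 147 of them had at least 25% on different transcripts. These 147 loci had near-equal sums and unequal shares.

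The loci with the largest differences in their sum each had 1 transcript that made up much of the difference, but not always all of it. The 3 largest on the lower side were 15:90373831-90456188, described above, 12:53290977-53346686 and 1:45140364-45191263. At 12:53290977-53346686 the sum was 43.1 FPKM in KO and 434.2 FPKM in WT. There ENST00000581256 was listed at 0 in KO and at 308.0 FPKM in WT, where its bounds ran from 0 to 2235 FPKM. In the tracking table this transcript had 48.5 FPKM in KO, and the share difference was 32.4%, against 75.9% in the test table. The other 26 transcripts were also lower in KO, at 43.1 FPKM in KO and 126.2 FPKM in WT (60.7 FPKM in KO and 123.3 FPKM in WT in the tracking table), and among them ENST00000432903 had 7.95 FPKM in KO and 46.2 FPKM in WT. At 1:45140364-45191263, ENST00000362507 was listed at 0 in KO in the test table, at 6.23 FPKM in KO in the tracking table and at 22.7 FPKM in WT. Its WT bounds ran from 0 to 87.7 FPKM. These 2 zeros were thus not seen in the second KO column.

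On the higher side, 6:26365387-26378546 had 34.8 FPKM in KO and 5.56 FPKM in WT. ENST00000401160 accounted for 27.1 FPKM in KO and was listed at 0 in WT, and ENST00000356386, the WT leader, had 5.59 FPKM in KO and 4.29 FPKM in WT. At 17:37827375-37887040 the sum was 648.5 FPKM in KO and 195.6 FPKM in WT. ENST00000580969 had 537.7 FPKM in KO (350.8 FPKM in the tracking table) and 88.1 FPKM in WT, with bounds that did not overlap, and the other 40 transcripts had 110.8 FPKM in KO and 107.4 FPKM in WT. The third locus on this side, 15:75639296-75648087, is described above. No transcript of these 6 loci was called in the authors' deposited table.

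The authors' test called few transcripts of these loci. Of 18426 member transcripts that were tested, 4 (0.0217%) had a q-value of at most 0.05 in the authors' deposited table, against 0.255% of all 85852 tested transcripts of the series. All 4 were lower in KO (0.192% over all tested) and 0 were higher in KO (0.0629% over all tested). At a q-value of 0.1 the count was again 4, against 0.337% over all tested. At an unadjusted p-value under 0.05 there were 162 (0.879%), against 2.38%. The percent of member transcripts called lay under that of all tested transcripts at each of these limits. The p-values rest on the spread between libraries. The labels give 3 libraries per group, but which of them enter each KO column is not stated. Nothing says that the libraries came from separate cultures, so this spread may be technical.

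Each of the 4 called transcripts led its locus in WT. At 17:61509665-61523739, with 21 transcripts, ENST00000360793 fell to 0.932 FPKM in KO, against 4.47 FPKM in WT, with a q-value of 0.0220 in the authors' deposited table. Its share was 15.8% in KO and 49.0% in WT, and its bounds of 0.345 to 1.59 FPKM in KO and 2.29 to 6.44 FPKM in WT did not overlap. ENST00000582143 led that locus in KO, with 2.56 FPKM in KO and 0.599 FPKM in WT, a difference that was not called. ENST00000578016 led in KO in the tracking table instead, with 30.3%, against 27.5% for ENST00000582143.

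At 19:54024235-54083523, with 22 transcripts, ENST00000253144 fell to 0.975 FPKM in KO, against 5.07 FPKM in WT (q-value 0.0220 in the authors' deposited table). Its share was 12.8% in KO and 39.8% in WT. Its bounds overlapped, at 0 to 2.50 FPKM in KO and 2.08 to 7.83 FPKM in WT. ENST00000513929 led there in KO, with 2.85 FPKM in KO and 3.19 FPKM in WT, and the locus sum was 7.65 FPKM in KO and 12.7 FPKM in WT.

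At 3:48282590-48343175, with 31 transcripts, the locus sum was 86.4 FPKM in KO and 81.7 FPKM in WT while the shares of its transcripts differed. ENST00000354698 fell to 8.19 FPKM in KO, against 20.8 FPKM in WT (q-value 0.0220 in the authors' deposited table), and its share was 9.47% in KO and 25.5% in WT. ENST00000362606 had 30.5 FPKM in KO (19.9 FPKM in the tracking table) and 3.38 FPKM in WT, a share of 35.3% in KO and 4.14% in WT. The bounds of ENST00000362606 did not overlap, but its p-value in the authors' deposited table was 0.412. Without ENST00000362606 the rest of the locus was lower in KO, at 55.9 FPKM against 78.3 FPKM in WT.

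At 11:73357223-73373864, with 22 transcripts, ENST00000227214 fell to 2.57 FPKM in KO, against 6.39 FPKM in WT (q-value 0.0392 in the authors' deposited table), and the locus sum was 7.32 FPKM in KO and 14.6 FPKM in WT. Here the called transcript kept its lead, with 35.02% in KO and 43.9% in WT. In the tracking table the KO leader was ENST00000540431 instead, with 50.2% in KO, against 26.4% in KO in the test table. The share difference was accordingly 33.4% in the test table and 56.7% in the tracking table.

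**Figure D4:**
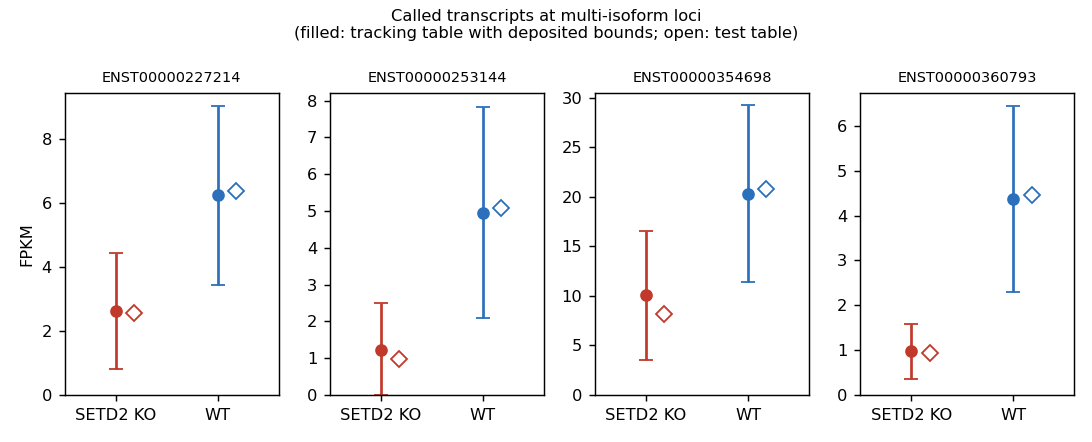
FPKM (y axis) of the 4 transcripts called in the authors' deposited table, KO left of WT. Filled points are tracking-table values with their deposited bounds (level not stated), and open diamonds are test-table values. All 4 were lower in KO, and the bounds did not overlap for ENST00000360793 alone.

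Bounds that did not overlap and the authors' calls had 1 transcript in common. The deposited bounds did not overlap between KO and WT for 44 of the tested member transcripts (0.239%), against 0.632% of all tested. Of these 17 were higher in KO, and 1 of the 44 had an unadjusted p-value under 0.05 in the authors' deposited table. At the 932 loci, 30 of them also differed in share by at least 10 percentage points, 18 lower and 12 higher in KO. Among these 30, 15 were listed at 0 in KO, 4 were listed at 0 in WT and 11 were above 0 in both groups. Their p-values in the authors' deposited table, other than that of ENST00000360793, ran between 0.0594 and 0.643.

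Several of the 11 transcripts above 0 in both groups had high levels. ENST00000384512 at 1:76190036-76260764 had 191.3 FPKM in KO (124.6 FPKM in the tracking table) and 67.0 FPKM in WT, 56.2% of its locus in KO and 30.2% in WT. ENST00000410433 at 20:47835884-47905797 had 134.2 FPKM in KO (87.6 FPKM in the tracking table) and 29.4 FPKM in WT, 40.2% in KO and 8.69% in WT. ENST00000578074 at 2:130908981-130948302 went the other way, with 27.1 FPKM in KO (17.7 FPKM in the tracking table) and 142.5 FPKM in WT, 5.26% in KO and 20.7% in WT. These 3 were chosen for naming after their values were seen.

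Share differences were larger at loci with lower sums. With loci placed by the geometric mean of their KO and WT sums, the median share difference was 36.4% at the 91 loci of 5 to 20 FPKM, 24.7% at the 377 loci of 20 to 100 FPKM, 17.2% at the 367 loci of 100 to 500 FPKM and 13.0% at the 97 loci of at least 500 FPKM. The medians between both KO columns followed the same order, at 15.4%, 11.8%, 9.16% and 6.77%. Over the 932 loci, Spearman's rank correlation with the share difference was -0.51 for the level and 0.62 for the difference between the KO columns. Both are descriptions across loci, which share their libraries and depth. The number of transcripts showed no such order, with a rank correlation of 0.01 and medians of 21.1% at loci of 20 to 24 transcripts and 20.5% at loci of at least 40. Locus length had a rank correlation of 0.07. Loci with a dominant transcript differed less, with a median of 13.7% where the WT leader held at least 50% and 24.2% where it held under 20%.

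**Figure D5:**
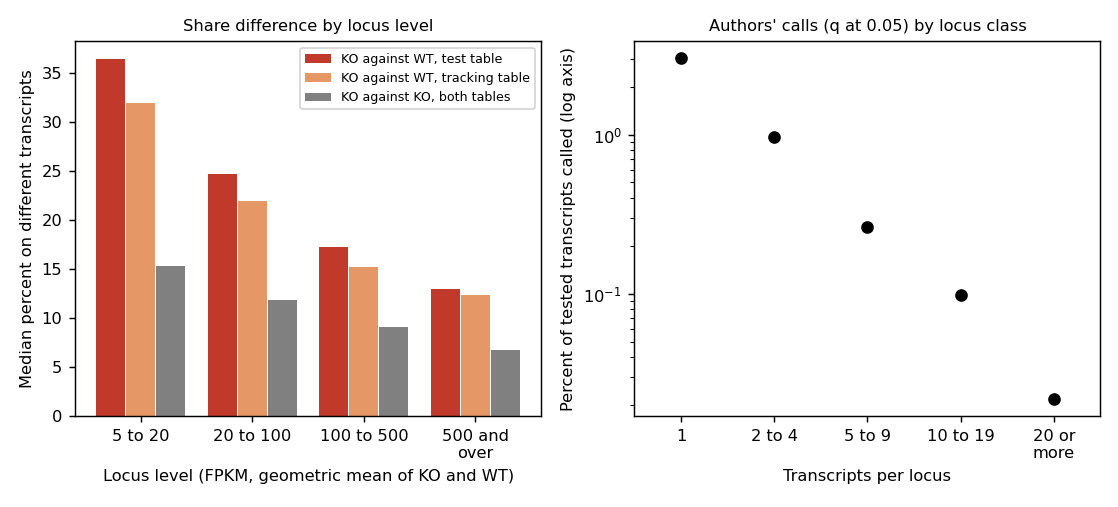
Left, median share difference (percent of locus FPKM on different transcripts) by locus level, for KO against WT in each table and KO against KO between the tables. Right, percent of tested transcripts called at a q-value of 0.05 in the authors' deposited table by number of transcripts per locus, on a log axis. The medians were lower at higher levels in all 3 comparisons, and the called percent was 0.0217 at loci of 20 or more transcripts and 3.01 at loci of 1 transcript.

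Median share differences were larger, and the percent of calls smaller, the more transcripts a locus class had. Among autosomal loci under 100 kb and at least 5 FPKM in both groups, the median share difference was 21.1% at the member loci, 19.5% at 1876 loci of 10 to 19 transcripts, 15.0% at 1759 loci of 5 to 9 and 7.11% at 1046 loci of 2 to 4. Between both KO columns these medians were 10.1%, 9.05%, 6.73% and 3.23%, in the same order. The leader differed at 34.5% of member loci, against 32.4%, 24.8% and 11.8% of the other classes. The percent of tested transcripts called in the authors' deposited table was 0.0217 at member loci, 0.0983 at loci of 10 to 19 transcripts, 0.264 at loci of 5 to 9, 0.97 at loci of 2 to 4 and 3.01 at loci of 1. Median WT levels of the tested transcripts were similar in these classes, at 1.84, 1.66, 1.85, 1.91 and 1.68 FPKM. None of these differences between classes was tested, because loci are not replicates.

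Loci just inside and just outside the limits of the rule are given as a description. Loci with exactly 20 transcripts had a median share difference of 19.5% (71 loci), and loci with exactly 19, just outside, had 20.4% (125 loci). Loci of 90 to 100 kb had 23.4% (66 loci), and loci of at least 20 transcripts but 100 to 110 kb had 23.6% (59 loci). These medians in the tracking table were 18.3% and 18.8% inside and outside the limit on transcripts, and 21.8% and 18.2% inside and outside the limit on length. The leader differed at 29.6% of loci with exactly 20 transcripts and 36% of those with exactly 19, and at 45.5% of loci of 90 to 100 kb and 37.3% of those of 100 to 110 kb.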

How the data were processed

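Per the labels' protocols, RNA from 3 SETD2 knockout and 2 wild-type HEK293T samples was purified on columns, depleted of ribosomal RNA and made into libraries with the NEBNext Ultra II kit, and the label of the remaining wild-type RNA sample gives a chromatin protocol. Per the submitters' processing notes, TopHat, Cuffdiff, Bowtie 1.1.2 and hg19 were used, with no roles stated. For each transcript the authors deposited 1 FPKM value per group, bounds around it, a log2 fold column (log2 of WT over KO), and the score (test statistic), p-value and q-value of their test. No counts or library values were used, so depth is unknown and no test of shares was possible.

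Loci were taken from identical locus strings. Shares, share differences, effective numbers (inverse Simpson index) and leading transcripts were computed from the deposited FPKM of each table in pandas 2.3.3 (numpy 2.4.6, under Python 3.11.15; rank correlations with scipy 1.17.1) and checked on simulated loci. Log2 ratios of locus sums are KO over WT, with no pseudocount, except that sums were ranked with 1 FPKM added. Starts have 1 added and are 1-based. Calls used the authors' q-value at 0.05, which they adjusted over all transcripts tested. For shares, locus sums had to reach 5 FPKM in both groups, and for the ranking of differences in the sum at least 10 FPKM in 1 group.

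Named were the called transcripts and their loci, the 5 highest KO sums, and the 3 largest differences of the sum in each direction. Also named, at loci of at least 10 FPKM, were the 10 largest and 5 smallest share differences. The largest were ranked by the smaller of both tables' values, and the smallest by the larger. Loci named from transcripts above 0 in all 4 columns, and 3 transcripts with bounds apart, were chosen after the values were seen. The members and lists were chosen with earlier results of these data known. The planned comparison of FPKM-weighted transcript length was left out because the length column is empty.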

Additional observations from a re-analysis of the deposited data

How the results depend on the processing

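There were 54 alternatives, 48 planned and 6 added after seeing the data. Of these, 35 stayed close to the reported value (within 1.5-fold of it), 15 moved it and 4 reversed it. The causes were not tested, except that counts over fewer loci or past a stricter bound are lower by construction. Close values included 218 in place of 319 loci with at least 25% on different transcripts, without transcripts at 0 in a group. They also included 229 in place of 322 loci with a different leader, without each locus's most different transcript. The median share difference was among the values that stayed close under each alternative run for it. The median difference in effective number (0.029) reversed with the tracking table (-0.075), with loci shorter than 50 kb (-0.012), with the Shannon index (-0.16) and without each locus's most different transcript (-0.012). It moved to 0.018 and 0.044 with minimum sums of 1 and 20 FPKM, 0.13 without transcripts at 0 in a group, 0.045 with 30 or more transcripts and 0.062 with transcripts the authors tested. The median log2 ratio of locus sums (0.035) was 0.11 with the tracking table and 0.069 without transcripts at 0 in a group. Loci with a different leader (322) numbered 139 with 30 or more transcripts, 161 when shorter than 50 kb and 65 with a lead of 10 points in both groups. Loci with at least 25% on different transcripts (319) numbered 120 and 165 in the same 2 subsets, and 37 past 50%. The median share difference of the KO leader (2.38 points) was 1.23 points without each locus's most different transcript. Calls with bounds apart numbered 1 in place of 4. Alternatives on weighted transcript length were not run, for want of lengths, nor was leaving out a replicate, since the columns hold group values. No paired analysis was possible because the deposited columns hold 1 value per group and no library numbers.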

Other observations

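Of the 22 autosomes, chromosome 3 had the highest median share difference between KO and WT in the test table, and it is named after all were seen. With the tracking table chromosome 6 was higher, at 22.4%. In the test table a higher percent of loci (60%) had at least 25% on different transcripts on chromosome 13, which had 5 loci. The 44 loci of chromosome 3 had a median of 27.7%, against 20.9% at the 888 loci of the other chromosomes, and 21.6% against 17.9% in the tracking table. At least 25% of the locus lay on different transcripts at 25 of the 44 loci (56.8%), against 33.1% elsewhere, and at 43.2% against 24.8% in the tracking table. Locus sums were lower in KO at 32 of the 44 loci, with a median log2 ratio of KO to WT of -0.28 and of -0.20 in the tracking table. Over all 932 loci they were lower in KO at 416, with medians of 0.04 and, in the tracking table, 0.11. The median level was 49.8 FPKM on chromosome 3 and 102.4 FPKM elsewhere, and the difference between both KO columns was 12.2% against 10.1%. Lower levels went with larger share differences over all loci, and the part of level in the chromosome 3 values was not tested.

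The locus left out for a failed estimate was 19:10764937-10803093, with 26 transcripts that summed to 416.6 FPKM in KO and 394.4 FPKM in WT. At loci under 5 FPKM, 29 were listed at 0 in both groups, 17 in KO only and 1 in WT only, and the highest sum in the other group among the last 18 was 3.88 FPKM.

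At the 319 loci with at least 25% on different transcripts, the single transcript with the largest gain in share held a median of 35.2% of the gain, and the one with the largest loss 39.1% of the loss. At 82 of these loci 1 transcript made up at least 50% of the gain, and at 90 loci 1 transcript made up at least 50% of the loss.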
